A study of Mus musculus with 13 samples.

Results

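The complement components, regulators and receptors described here are 30 genes of the 22048 in the count table, taken by name from a list, and all 30 were found. They cover the classical recognition subunits and proteases (C1qa, C1qb, C1qc, C1ra, C1rb, C1rl, C1s1, C4b, C2), the alternative arm (C3, Cfb, Cfd, Cfp), the terminal components (Hc, C6, C7, C8a, C8b, C8g, C9), the fluid-phase regulators (Cfi, Cfhr2, C4bp, Serping1, Vtn, Clu), the membrane regulators (Cd55, Cd59a) and the receptors (C3ar1, C5ar1). By their main textbook source, 20 were taken as hepatocyte-made. Another 6 were taken as made by macrophages or other myeloid cells (the C1q chains, Cfp, C3ar1 and C5ar1) and are called macrophage-made below. The remaining 4 were placed in neither group (C7, Cfd, Cd55, Cd59a). The study measured polyadenylated RNA of whole mouse liver in 13 animals. The 6 control livers (3 male, 3 female) had their hepatic stellate cells, the vitamin A-storing pericytes of the sinusoids. The 4 depleted livers (1 male, 3 female) had been depleted of stellate cells, and the 3 hepatectomy livers (2 male, 1 female) kept their stellate cells and were taken 72 h after surgical removal of part of the liver. Strain, genotype, age and the means of depletion are not given in the sources used here, nor whether control or depleted animals had a sham operation. Effects of the depleting agent and of the loss of stellate cells cannot be told apart.

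Complement is a protease cascade of blood plasma. The classical route starts when C1q, built of chains from 3 genes, binds antibody or altered surfaces and switches on the serine proteases C1r and C1s, which cut C4 and C2 into a convertase. All routes meet at C3, whose cleavage labels surfaces and is amplified by factor B, factor D and properdin, and C5 then seeds the pore made of C6, C7, C8 and C9. Hepatocytes secrete most of the circulating proteins, several of them as acute phase proteins that rise in inflammation, while C1q and properdin come mainly from macrophages and other myeloid cells.

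Libraries held 35360991 to 51008737 counts. Before the scaling named next, 3 counts corresponded to 0.0588 to 0.0848 CPM (counts scaled to a common library total). Levels below are CPM after trimmed mean of M values (TMM) scaling, and TPM (counts per length, scaled to a common total) wherever genes are set beside each other. The stellate markers summed to 155 to 425 CPM in the control group, to 12.7 to 38.3 CPM where these cells had been depleted and to 154 to 309 CPM after hepatectomy, and 8 of 8 were lower in depleted livers by the edgeR test used below. The summed hepatocyte markers overlapped between depleted livers (66304 to 165242 CPM) and controls (69153 to 137477 CPM), with 0 of 8 called by edgeR (0 higher and 1 lower at an unadjusted p under 0.05). Alb made up most of each sum, at 51044 to 143508 CPM in depleted livers and 39686 to 117686 CPM in controls. Among the libraries, 2 stood apart: control replicate 6 had 73.1 CPM of summed Kupffer cell markers against 395 to 601 in the other 5 controls, and hepatectomy replicate 2 had 82.3 CPM against 285 and 759 in the other 2. These libraries were also the lowest of their groups in summed monocyte, stellate and endothelial markers. The main results for macrophage-made genes are therefore given with and without them. This omission was chosen after seeing the data and by macrophage markers, so smaller p-values under it are no separate support.

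In control livers, complement RNA was dominated by C3 and vitronectin. Per length, C3, the protein on which all routes converge, had a median of 4576 TPM, and Vtn, the plasma protein that keeps the terminal complex out of membranes, had 2708 TPM. The chaperone clusterin (Clu, 899 TPM), the C1 inhibitor gene Serping1 (786 TPM), the C3b-cutting protease gene Cfi (765 TPM) and the regulator gene Cfhr2 (613 TPM) followed. C9, C8a, C8g, C4b and C8b lay between 393 and 541 TPM and overlapped one another between animals. The macrophage-made genes were far lower, from 117 TPM for C1qa and 108 TPM for C1qb to 1.06 TPM for C5ar1, the receptor for the C5a fragment. C7 (0.604 TPM) and Cfd (0.0324 TPM) stood at the bottom. In depleted livers, C1qa (731 TPM) moved from rank 17 to rank 7 of the 30 genes, and C3 stayed first in all 3 groups.

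The 30 genes together took 1.94 to 2.42% of all counts of a control library, against 3.09 to 3.75% with depletion and 3.02 to 3.75% with hepatectomy, so both conditions lay above every control. C3 alone supplied a median of 0.991% in controls, 2.07% in depleted livers and 1.61% after hepatectomy. The macrophage-made genes were a small part of this, with medians of 0.0183%, 0.102% and 0.0142% in the same order. Without C3, the hepatocyte-made genes took 0.882 to 1.4% in controls and 1.18 to 1.73% in depleted livers, and these ranges overlapped. After hepatectomy they took 1.51 to 1.82%.

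Stellate cell depletion was accompanied by higher RNA of 13 complement genes and lower RNA of 2, of the 29 that passed the filter on low counts. Over all genes tested, 33.9% were called, 18.9% as higher and 15.0% as lower, while the shares among the complement genes were 44.8% and 6.90%. The median log2 fold change was 0.48 over the 29 genes and -0.03 over all genes. The CPM ranges of depleted and control livers did not overlap for 11 of the 29 genes on the higher side and 1 on the lower, against 16.5% and 11.9% of all genes. Among macrophage-made genes, 5 of 6 rose, with a median log2 fold change of 2.58. Among hepatocyte-made genes, 8 of 20 rose and 1 fell, with a median of 0.33.

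**Figure D1:**
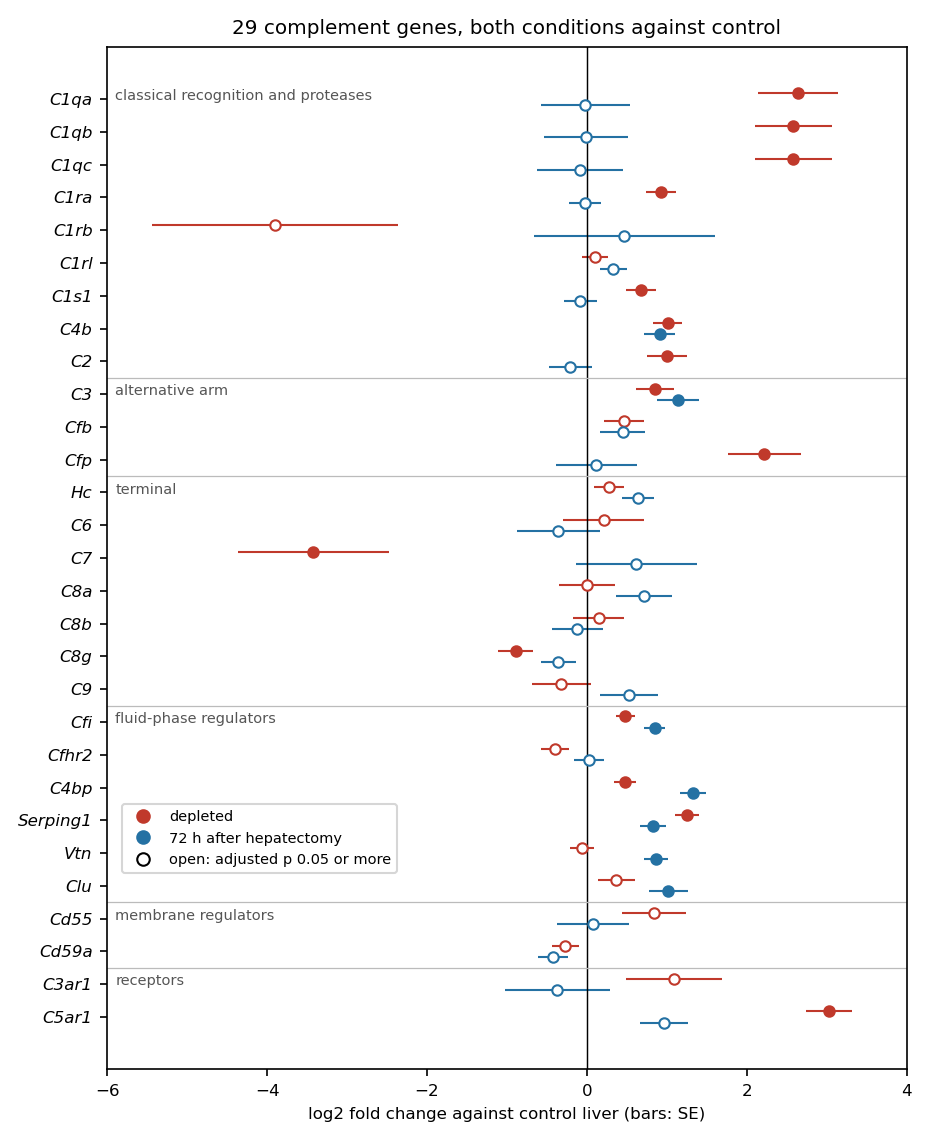
Log2 fold change against control for the 29 complement genes tested, ordered by step of the cascade, with bars for the standard error, red for depleted livers (n = 4) and blue for livers 72 h after hepatectomy (n = 3), against the same 6 controls. Filled points passed an adjusted p of 0.05. The C1q genes, Cfp and C5ar1 lie furthest right in depleted livers, while after hepatectomy the filled points are C3, C4b and 5 fluid-phase regulators.

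The 3 chains of C1q rose together in depleted livers. C1qa was at 12.1 to 68.7 CPM in the 6 controls (median 52) and at 215, 193, 352 and 425 CPM in the 4 depleted livers. C1qb was at 10.9 to 63.9 CPM (median 49.1) and at 215, 190, 298 and 388 CPM, and C1qc at 10.4 to 67.8 CPM (median 50.3) and at 224, 213, 318 and 390 CPM. For each chain the lowest depleted liver lay well above the highest control. The log2 fold changes were 2.64 ± 0.50 (SE; adjusted p = 0.00166) for C1qa, 2.58 ± 0.48 (adjusted p = 0.00135) for C1qb and 2.58 ± 0.48 (adjusted p = 0.00141) for C1qc. Without control replicate 6 and hepatectomy replicate 2, the values were 2.48 ± 0.25 for C1qa (adjusted p = 2.93e-05) and 2.42 for both C1qb and C1qc. In bulk tissue, more cells of a type and more RNA per cell cannot be told apart.

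C1qa, C1qb and C1qc lie side by side on chromosome 4 (C1qb 136880129 to 136886187, C1qc 136889804 to 136893065, C1qa 136895917 to 136898803, mm10, all on the minus strand). The 3 transcripts are not near copies of each other, with 63.3 to 66.7% identity and 0% of their 50-base windows shared, so reads could be told apart between the chains. Their ratio stayed narrow over all 13 livers: C1qa to C1qb ran from 0.92 to 1.24 in TPM and C1qc to C1qb from 0.537 to 0.63. RefSeq (GRCm38.p6) gave promoters for C1qb and C1qc, shown because these genes moved as a block. Each holds a match to GAGGAA, the core that the myeloid factor PU.1 binds, searched on both strands and given in capitals.
C1qb (chr4:136886201-136886450, minus strand): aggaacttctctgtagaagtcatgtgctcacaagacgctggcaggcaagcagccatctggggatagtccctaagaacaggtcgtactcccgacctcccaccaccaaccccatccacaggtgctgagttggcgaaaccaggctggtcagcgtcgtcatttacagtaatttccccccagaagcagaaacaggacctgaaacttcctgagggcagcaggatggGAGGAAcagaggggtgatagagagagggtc
C1qc (chr4:136893066-136893164, minus strand): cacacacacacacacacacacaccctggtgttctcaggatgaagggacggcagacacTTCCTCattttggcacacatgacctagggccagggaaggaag
The match in C1qb lies 30 to 25 bases before the RefSeq start and the one in C1qc 193 to 188 bases before it. The window printed for C1qc ends at the table's first exon, so that its capitals lie 42 to 37 bases before the end of the line. The 6 letters occur in 23.1% of the 27025 promoters of 250 bases and in 3 of the 23 complement promoters found (also Cd59a), so a match is common and is a description only.

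Properdin and the C5a receptor showed the same direction in depleted livers. Cfp, the gene for properdin, which stabilises the alternative convertase, was at 6.48 to 34.9 CPM in controls (median 23.3) and at 83.9, 80.5, 104 and 163 CPM in depleted livers, and it rose by 2.22 ± 0.46 on the log2 scale (adjusted p = 0.00262). C5ar1 was at 0.69 to 2.12 CPM in controls (median 1.17) and at 8.97, 9.85, 9.62 and 9.64 CPM in depleted livers, which differed little among themselves. Its log2 fold change of 3.03 ± 0.29 (adjusted p = 1.33e-05) had the largest size among the genes called higher. Without control replicate 6 and hepatectomy replicate 2, the values were 2.09 ± 0.25 for Cfp (adjusted p = 0.000102) and 2.92 ± 0.25 for C5ar1 (adjusted p = 1.11e-05). C3ar1, the receptor for C3a, was at 0.12 to 5.39 CPM in controls and at 5.18, 5.85, 5.89 and 5.83 CPM in depleted livers, so the ranges overlapped. Its value of 1.09 ± 0.60 did not pass (adjusted p = 0.182), but without control replicate 6 and hepatectomy replicate 2 it was 0.94 ± 0.22 and passed (adjusted p = 0.00685).

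**Figure D2:**
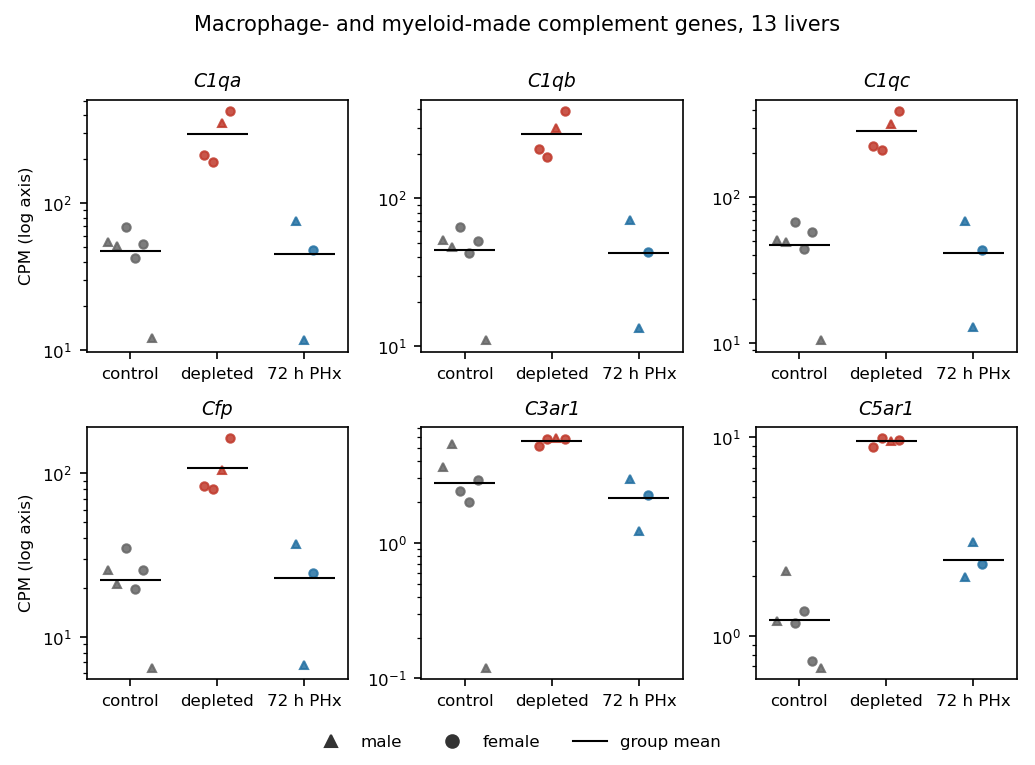
CPM on a log axis of the 6 macrophage-made genes in each liver, by group, with 1 point per animal. The 4 depleted livers lie above all controls for C1qa, C1qb, C1qc, Cfp and C5ar1, and control replicate 6 and hepatectomy replicate 2 are the lowest points of their groups for the C1q chains and Cfp.

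Markers of several white blood cells moved with these genes. Kupffer cells are the resident macrophages of the liver. In depleted livers 5 of their 8 markers rose (Timd4, Marco, Adgre1, Csf1r and Cd163). The summed level of the 8 was 1202 to 2213 CPM against 73.1 to 601 CPM in controls. Timd4, for example, was at 44.3, 34.4, 55.4 and 63.2 CPM against 1.5 to 17.1 CPM (2.13 ± 0.64, adjusted p = 0.0218). Cd5l lay above all controls but was not called (adjusted p = 0.0714). The Kupffer gene Clec4f went the other way in most depleted livers, at 0.236, 2.17, 3.44 and 69.5 CPM against 20.3 to 165 CPM in controls (adjusted p = 0.0872). Vsig4, a complement receptor of resident Kupffer cells, was at 13.1, 20.2, 18 and 29.1 CPM in depleted livers, below 5 of the 6 controls (32.3 to 50.9 CPM) and above control replicate 6 (6.27 CPM), with a log2 fold change of -0.88 ± 0.60 (adjusted p = 0.287). Of 7 monocyte markers, 6 rose, with sums of 466 to 890 CPM against 17.3 to 125 CPM, though Chil3 among them passes the filter only with the other groups. The neutrophil markers summed to 130 to 292 CPM against 0.78 to 4.84 CPM, with Ly6g at 0 in every control. Of 8 neutrophil markers, 7 were tested and all 7 were called higher, but only 2 pass the low-count filter in controls alone, so this count was largely fixed by the filter. Of the lymphocyte markers, 5 of 5 for T and NK cells rose (25.6 to 59.8 CPM against 2.02 to 3.3 CPM), of which 4 pass the filter in controls alone, as did 3 of 3 for B cells (13.5 to 23.5 CPM against 1.89 to 3.7 CPM). C1qb per CPM of Csf1r, a receptor of the whole macrophage lineage, was 0.333 to 0.426 in depleted livers and 0.183 to 0.906 in controls. The value of 0.183 is control replicate 4 alone, and the other 5 controls, at 0.554 to 0.906, lay above all 4 depleted livers. C1qb per CPM of Adgre1, another macrophage gene, was 2.36 to 4 in depleted livers and 1.78 to 6.28 in controls, and the ranges overlapped. The value of 6.28 is control replicate 6, and the other 5 controls were at 1.78 to 2.35. C1qb per CPM of Vsig4, which itself was lower in depleted livers than in 5 of the 6 controls, was 9.4 to 16.6 in depleted livers. In controls that ratio was 1.04 to 1.74, and the ranges did not overlap. The part of these cells in the rise of the macrophage-made genes was not tested.

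Of the classical proteases and their substrate C4, the genes C1ra, C1s1, C2 and C4b rose in depleted livers, while C1rl did not pass. C1ra, which encodes the protease that first becomes active in the C1 complex, was at 158 to 361 CPM in controls (median 236) and at 381, 378, 483 and 433 CPM in depleted livers. Every depleted liver lay above every control, with a log2 fold change of 0.93 ± 0.19 (adjusted p = 0.00254). C1s1, the protease that cuts C4 and C2, was at 326 to 566 CPM (median 475) and at 661, 708, 877 and 605 CPM, a rise of 0.68 ± 0.19 (adjusted p = 0.0161). This call was lost without depleted replicate 3, the single depleted male (adjusted p = 0.0989).

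C2 and C4b supply the parts of the classical C3 convertase. C2 was at 19 to 63 CPM in controls (median 48.7) and at 83.6, 68.8, 101 and 82.2 CPM in depleted livers, a log2 rise of 1.00 ± 0.25 (adjusted p = 0.00834). C4b was at 573 to 1331 CPM in controls (median 1106) and at 1931, 1920, 2323 and 1598 CPM in depleted livers, a rise of 1.01 ± 0.18 (adjusted p = 0.00101). For both genes the groups did not overlap. C1rl, a C1r-like protease gene, was at 77.7 to 191 CPM in controls and at 141, 129, 152 and 112 CPM in depleted livers, with a log2 fold change of 0.10 (adjusted p = 0.676).

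C3 rose in both conditions. It was at 6347 to 13374 CPM in controls (median 9776), at 21627, 22765, 16770 and 11131 CPM in depleted livers and at 24872, 18273 and 17150 CPM after hepatectomy. All livers of both conditions except depleted replicate 4 lay above the highest control. The log2 fold change was 0.85 ± 0.24 in depleted livers (adjusted p = 0.0143) and 1.14 ± 0.26 after hepatectomy (adjusted p = 0.0183). The depletion call was lost without depleted replicate 3 (adjusted p = 0.077) and with females only, where the value was 0.65 ± 0.31 (adjusted p = 0.195). The hepatectomy call was lost in 5 of 19 alternatives (adjusted p from 0.0557 to 0.137), among them without hepatectomy replicate 1 or 2 and without control replicate 1. The C3 promoter (RefSeq, GRCm38.p6) is shown because C3 carries the largest share of complement RNA; capitals mark a match to TTGCNNAA, a core bound by C/EBP factors, 45 to 38 bases before the start.
C3 (chr17:57228137-57228386, minus strand): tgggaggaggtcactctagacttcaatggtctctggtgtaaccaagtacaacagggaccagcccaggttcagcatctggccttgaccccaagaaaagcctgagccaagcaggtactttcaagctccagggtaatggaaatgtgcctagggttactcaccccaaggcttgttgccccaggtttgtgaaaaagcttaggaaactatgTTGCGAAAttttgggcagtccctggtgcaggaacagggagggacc
These 8 positions match in 9.55% of all promoters and in 5 of the 23 complement promoters (C1rb, C1rl, C1s1, C3 and C9). A match to the core of the NF-kB site was found in 1 complement promoter (C3ar1; 1.4% of all), and one to TTCNNNGAA, written for STAT factors, in 3 (C1rb, C7 and C8a; 7.18% of all).

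Of the rest of the alternative arm, Cfb and Cfd gave no call. Cfb, the protease of the alternative convertase, was at 41.5 to 86.9 CPM in controls and at 121, 107, 107 and 50.7 CPM in depleted livers, so that 3 of 4 lay above all controls and the other within them. Its log2 fold change was 0.47 ± 0.25 (adjusted p = 0.175), and without depleted replicate 4 it was 0.67 ± 0.20 and passed (adjusted p = 0.0212). Cfd, the factor D gene known for its expression in fat, had at most 5 counts in any library and was the only complement gene that failed the filter. Of the adipocyte markers, Plin1, Lep and Retn had at most 3 counts in any library and Adipoq was at 0 in all depleted livers. Their summed level, 5.58 to 7.91 CPM in controls and 24.1 to 37.9 CPM in depleted livers, was nearly all Fabp4, at 4.65 to 7.14 CPM and 23.7 to 37 CPM.

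Of the terminal components, none of the 7 was called higher in depleted livers, by edgeR at an adjusted p under 0.05 or at an unadjusted p under 0.05, and C7 and C8g fell. DESeq2 and limma-voom also called none of them higher. C8g, the lipocalin-like chain of C8, was at 203 to 448 CPM in controls (median 286) and at 140, 144, 130 and 205 CPM in depleted livers, with a log2 fold change of -0.89 ± 0.22 (adjusted p = 0.00662). Depleted replicate 4 lay within the range of the controls, and the call was lost without depleted replicate 3 (adjusted p = 0.0552) and with females only (adjusted p = 0.0999). Hc, the mouse gene for C5, was at 607 to 1188 CPM in controls and at 1109, 1136, 1043 and 646 CPM in depleted livers, and its value of 0.28 ± 0.19 did not pass (adjusted p = 0.284).

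C7 had few counts in every library. Its counts were 9 to 57 in the 6 controls, 0, 0, 2 and 9 in the depleted livers and 59, 25 and 46 after hepatectomy. In 3 of 4 depleted livers, C7 was under the floor of 3 counts, while depleted replicate 4 reached the lowest control count. The fitted log2 fold change was -3.42 ± 0.95 (adjusted p = 0.0143), and the call was lost without depleted replicate 3 (adjusted p = 0.0752) and with females only (-2.74 ± 1.22, adjusted p = 0.168). The summed stellate markers were also highest in replicate 4 among the depleted livers, at 38.3 CPM against 12.7 to 17.8 CPM in the other 3. The order was not the same within the other groups. In control replicates 1 to 6 these markers summed to 304, 389, 425, 410, 354 and 155 CPM, beside 57, 49, 39, 9, 11 and 19 C7 counts. After hepatectomy they summed to 220, 154 and 309 CPM, beside 59, 25 and 46 counts. Whether stellate cells were the source of the C7 RNA was not tested.

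The proportions of the 3 C8 genes varied between livers. C8 is made of an alpha, a beta and a gamma chain from C8a, C8b and C8g. The TPM ratio of C8g to C8b was 0.772 to 3.12 in controls and 0.66, 0.693, 0.698 and 0.931 in depleted livers, and the ranges overlapped. Within each sex they did not: control females were at 1.23 to 3.12 and depleted females at 0.693, 0.698 and 0.931, while control males were at 0.772 to 1.19 and the depleted male at 0.66. The ratio of C8a to C8b was 0.885 to 1.33 in controls, 0.687 to 1.35 in depleted livers and 1.98, 2.03 and 2.04 after hepatectomy, where all 3 livers lay above the other 10. The log2 fold changes of C8a (-0.00 ± 0.35), C8b (0.15 ± 0.32), C9 (-0.32 ± 0.37) and C6 (0.21 ± 0.51) in depleted livers did not pass.

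Among the fluid-phase regulators, Serping1, Cfi and C4bp rose in depleted livers. Serping1 encodes the C1 inhibitor, which removes C1r and C1s from the C1 complex. It was at 539 to 1011 CPM in controls (median 833), at 1813, 1525, 2274 and 1633 CPM in depleted livers and at 1493, 1373 and 1521 CPM after hepatectomy. No liver of either condition overlapped the controls, and the log2 rise in depleted livers was 1.25 ± 0.15 (adjusted p = 5.95e-05). Cfi was at 657 to 771 CPM in controls (median 669) and at 990, 1072, 981 and 866 CPM in depleted livers, a rise of 0.48 ± 0.12 (adjusted p = 0.00975) that was lost with females only (adjusted p = 0.106) and without depleted replicate 3 (adjusted p = 0.0527).

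C4bp, the inhibitor of the classical convertase, gave the least stable call in depleted livers. It was at 359 to 559 CPM in controls (median 451) and at 426, 466, 830 and 592 CPM in depleted livers, so that 2 of the 4 lay within the controls. The log2 fold change was 0.48 ± 0.14 (adjusted p = 0.0226), and the call was lost when sex was left out of the model (adjusted p = 0.3), with females only (adjusted p = 0.245) and without depleted replicate 3 (adjusted p = 0.11) or 4 (adjusted p = 0.0526). Vtn (-0.06 ± 0.15, adjusted p = 0.791), Clu (0.37 ± 0.23, adjusted p = 0.238) and Cfhr2 (-0.40 ± 0.18, adjusted p = 0.11) did not pass in depleted livers.

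The membrane regulators, which protect the body's own cells, gave no call against control. Cd55, which breaks up convertases, was at 5.73 to 22.6 CPM in controls, at 34.2, 33.5, 28.4 and 19.3 CPM in depleted livers and at 26.3, 5.56 and 15.4 CPM after hepatectomy. Its depletion value was 0.84 ± 0.40 (adjusted p = 0.13), and without control replicate 6 and hepatectomy replicate 2 it was 0.71 ± 0.23 and passed (adjusted p = 0.0317). Cd59a, which blocks the pore, was at 50.3 to 80 CPM in controls and at 57.1, 65, 54.2 and 50.2 CPM in depleted livers, with a value of -0.27 ± 0.17 (adjusted p = 0.255). After hepatectomy it was at 51.2, 33.2 and 62.8 CPM (-0.42 ± 0.19, adjusted p = 0.191), and this passed when library size alone was used for scaling, where the median of all genes was -0.24.

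**Figure D3:**
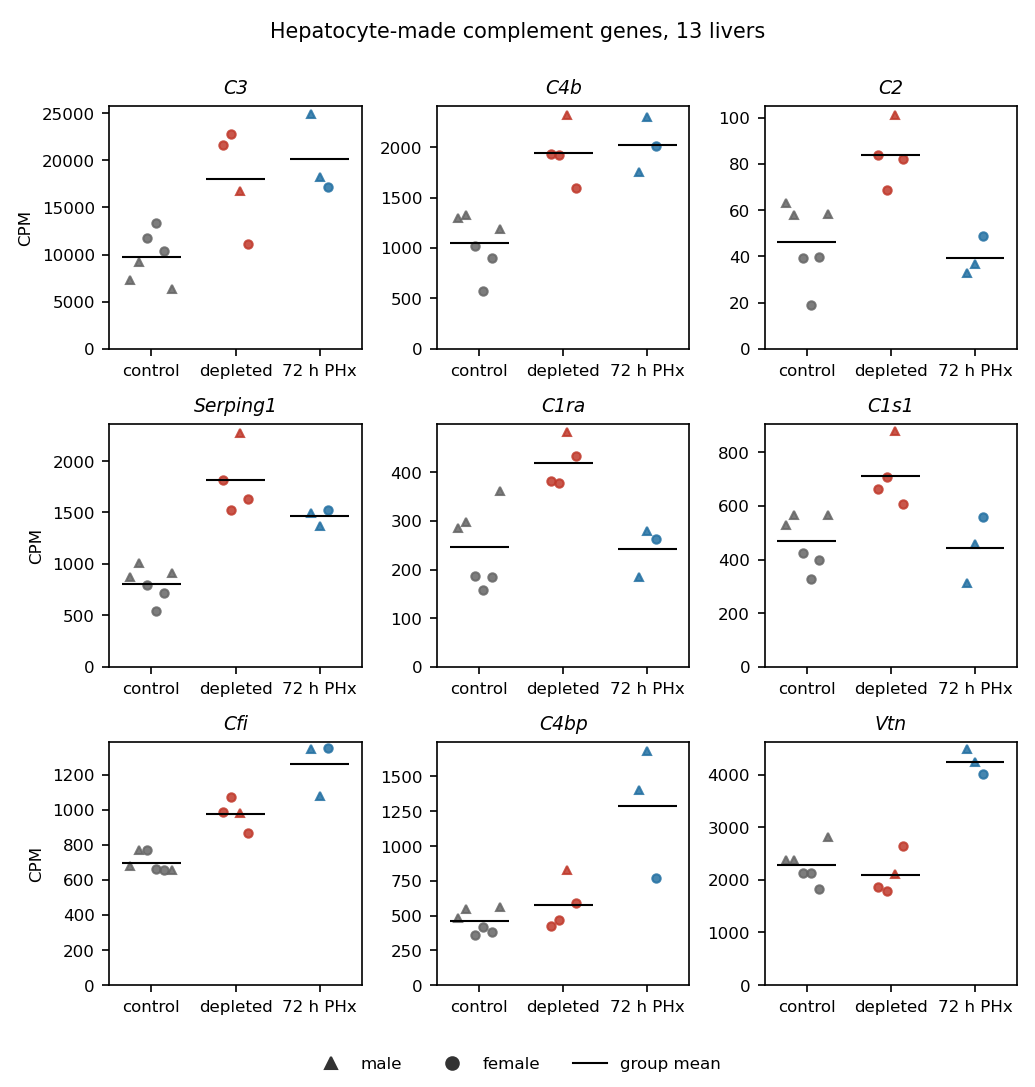
CPM on a linear axis from 0 of 9 hepatocyte-made genes in each liver, by group, with 1 point per animal. C3, C4b and Serping1 are high in both conditions, C2, C1ra and C1s1 in depleted livers, and C4bp and Vtn after hepatectomy.

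At 72 h after partial hepatectomy, 7 complement genes rose and 0 fell of the 29 tested. The 7 are all hepatocyte-made: C3, C4b, Cfi, C4bp, Serping1, Vtn and Clu. Over all genes tested, 8.42% were called, 6.06% as higher and 2.36% as lower, and the share among the complement genes was 24.1% on the higher side. The median log2 fold change was 0.33 over the 29 genes and -0.02 over all genes. The ranges did not overlap for 8 of the 29 on the higher side and 0 on the lower, against 7.41% and 6.25% of all genes. At an unadjusted p under 0.05, edgeR gave 9 higher and 1 lower, while DESeq2 called 9 and 0 and limma-voom 7 and 0 at an adjusted p under 0.05.

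Of the 6 fluid-phase regulators, 5 rose after hepatectomy. C4bp was at 1404, 1682 and 768 CPM against 359 to 559 CPM in controls, the largest log2 rise of the set at 1.33 ± 0.16 (adjusted p = 0.000546). Vtn was at 4485, 4248 and 4007 CPM against 1826 to 2808 CPM, a rise of 0.87 ± 0.15 (adjusted p = 0.00553). Cfi was at 1347, 1078 and 1353 CPM against 657 to 771 CPM, a rise of 0.85 ± 0.13 (adjusted p = 0.00332). In each case all 3 livers lay above all 6 controls. Serping1 rose by 0.83 ± 0.16 (adjusted p = 0.00832). Clu, at 2563, 3291 and 2635 CPM against 919 to 1729 CPM, rose by 1.02 ± 0.24 (adjusted p = 0.0205). Cfhr2 was the exception, at 623, 440 and 499 CPM against 461 to 595 CPM, with a value of 0.03 (adjusted p = 0.952).

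C4bp and Cfhr2 both lie on chromosome 1 and both hold a match to the 10-letter core of the site of the hepatocyte factor HNF1, searched on both strands, although their values after hepatectomy differed. Their upstream windows (RefSeq, GRCm38.p6) are shown for that contrast, with the match in capitals.
C4bp (chr1:130661633-130661868, minus strand): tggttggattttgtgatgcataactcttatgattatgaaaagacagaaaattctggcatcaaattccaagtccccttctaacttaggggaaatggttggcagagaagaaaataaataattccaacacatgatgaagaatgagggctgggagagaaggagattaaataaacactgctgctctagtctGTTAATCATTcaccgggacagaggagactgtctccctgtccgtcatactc
Cfhr2 (chr1:139858703-139858949, minus strand): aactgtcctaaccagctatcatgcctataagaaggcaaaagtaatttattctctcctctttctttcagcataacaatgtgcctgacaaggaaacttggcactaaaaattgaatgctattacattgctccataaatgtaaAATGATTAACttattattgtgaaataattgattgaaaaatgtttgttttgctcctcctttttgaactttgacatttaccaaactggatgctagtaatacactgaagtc
The match lies 64 to 55 bases before the start in C4bp and, on the other strand, 111 to 102 bases before it in Cfhr2. Both windows end at the table's first exon, so that the capitals lie 50 to 41 and 108 to 99 bases before the end of each line. It was found in 3 of the 23 complement promoters (also Hc) and in 0.411% of all 27025. RefSeq promoters of C1qa, C2, C4b, Cfb, Cfi, Serping1 and Clu were not used here.

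By edgeR, C3 and C4b were the components called after hepatectomy. C4b was at 1750, 2298 and 2009 CPM against 573 to 1331 CPM in controls, a log2 rise of 0.91 ± 0.19 (adjusted p = 0.0128). The hepatectomy livers carry the replicate numbers of 3 controls of the same sex. With those numbers as a block, only Cfi, C4bp and Vtn were called, and C3 (adjusted p = 0.137), C4b (adjusted p = 0.0609), Clu (adjusted p = 0.0578) and Serping1 (adjusted p = 0.0583) were not. Without hepatectomy replicate 2 or replicate 3, 4 genes were called in each case. C4bp, Cfi and Vtn were called under every omission of 1 library, but with males only the calls of Cfi (adjusted p = 0.0672) and Vtn (adjusted p = 0.0592) were lost.

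The proteases C1ra (-0.02 ± 0.20), C1s1 (-0.08 ± 0.21) and C2 (-0.21 ± 0.27) did not pass after hepatectomy. Hc was at 1285, 1473 and 1385 CPM, above all 6 controls (607 to 1188 CPM), but its log2 fold change of 0.64 ± 0.20 missed the threshold by edgeR (adjusted p = 0.069) and passed by DESeq2 (adjusted p = 0.027). None of the 6 macrophage-made genes was called, with 1 higher at an unadjusted p under 0.05 by edgeR, 1 called by DESeq2 and 0 by limma-voom. C1qa was at 75.9, 11.6 and 47.9 CPM, a spread as wide as that of the controls, with a log2 fold change of -0.02 ± 0.56. Without control replicate 6 and hepatectomy replicate 2 it was 0.15 ± 0.31 (adjusted p = 0.83), and C1qb (0.13 ± 0.29), C1qc (0.03 ± 0.27), Cfp (0.28 ± 0.31) and C3ar1 (-0.34 ± 0.28) did not pass either. C5ar1 was at 1.97, 2.95 and 2.29 CPM against 0.69 to 2.12 CPM, with a value of 0.97 ± 0.30 (adjusted p = 0.0693). It passed by DESeq2 (adjusted p = 0.0241) and without control replicate 2 (adjusted p = 0.0222), while without control replicate 6 and hepatectomy replicate 2 it was 0.71 ± 0.30 (adjusted p = 0.232).

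Acute phase genes of the hepatocyte moved with both conditions. Their summed level was 17795 to 26228 CPM in controls, 36236 to 55065 CPM in depleted livers and 70896 to 140980 CPM after hepatectomy. By the test, 9 of 12 rose in depleted livers and 12 of 12 after hepatectomy. After hepatectomy, 5 of 7 neutrophil markers were called higher as well, with sums of 17.9 to 33.4 CPM against 0.78 to 4.84 CPM and the same limit of the filter. The 5 mesothelial markers were all called higher, with sums of 9.91 to 45.5 CPM against 1.65 to 4.45 CPM. Of these 5, 4 pass the filter in controls alone. Of 5 cholangiocyte markers, 2 were called higher (Krt7 and Krt19, the latter also a mesothelial marker), with sums of 87 to 95.4 CPM against 49.1 to 93 CPM. The hepatocyte markers summed to 115704 to 171988 CPM after hepatectomy (median 154430) against 69153 to 137477 CPM in controls (median 97851), with 7 of 8 positive, a median log2 fold change of 0.39 and 0 called by edgeR (3 higher at an unadjusted p under 0.05). Most of the sum after hepatectomy was Alb, at 88350 to 140031 CPM. The part of these gene groups and cells in the rise of C3, C4b and the regulators was not tested.

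The direct comparison of depleted with hepatectomy livers called 8 complement genes higher and 3 lower. Over all genes, 23.4% were called, 13.3% higher and 10.1% lower, and the shares among the complement genes were 27.6% and 10.3%. The CPM ranges of the 2 conditions were separate for 10 complement genes on the higher side and 8 on the lower, against 18.1% and 15.9% of all genes. The 8 called higher were C1qa, C1qb, C1qc, Cfp, C5ar1, C1ra, C1s1 and C2, so 5 of 6 macrophage-made genes and 3 classical proteases or convertase parts. C1qc, for example, was higher by 2.67 ± 0.64 on the log2 scale (adjusted p = 0.0103), C5ar1 by 2.06 ± 0.36 (adjusted p = 0.00173), C1ra by 0.94 ± 0.23 (adjusted p = 0.0111) and C2 by 1.21 ± 0.30 (adjusted p = 0.013). The C1q calls were lost without depleted replicate 3 and without hepatectomy replicate 3 (adjusted p from 0.0519 to 0.0749). Without control replicate 6 and hepatectomy replicate 2, the C1q values were 2.29 to 2.38, Cfp was at 1.81 ± 0.36 (adjusted p = 0.00477) and C5ar1 at 2.21 ± 0.35 (adjusted p = 0.00123), and C3ar1 was also called (1.28 ± 0.30, adjusted p = 0.0119). The C1s1 call was lost in 7 of 16 alternatives (adjusted p from 0.0557 to 0.146), that of Cfp in 4 (0.0516 to 0.105) and that of C1ra in 1, with only these 2 groups in the fit (0.0506). The C2 call was lost without hepatectomy replicate 2, alone (adjusted p = 0.0504) or with control replicate 6 (adjusted p = 0.0543). In this comparison 1 of 8 Kupffer, 6 of 7 monocyte, 6 of 7 neutrophil, 5 of 5 T and NK cell and 3 of 3 B cell markers were called higher. The limit of the filter given above applies. Of 8 hepatocyte markers, 0 were positive and 0 called, and 4 of 12 acute phase genes were called lower (Fga, Fgb, Fgg and Itih4). The part of these cells and genes in the complement differences was not tested.

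The 3 genes lower in depleted than in hepatectomy livers were C4bp (-0.86 ± 0.18, adjusted p = 0.00459), Vtn (-0.93 ± 0.18, adjusted p = 0.00263) and C7 (-4.04 ± 1.02, adjusted p = 0.0131). C7 was not called without depleted replicate 3 or hepatectomy replicate 3, nor with the replicate block (adjusted p = 0.0585), under which C3ar1 was called higher (1.58 ± 0.44, adjusted p = 0.0368). C3 (-0.30 ± 0.30, adjusted p = 0.505), C4b (0.09 ± 0.22, adjusted p = 0.797) and Serping1 (0.42 ± 0.18, adjusted p = 0.116), which rose against control in both conditions, were not called in this comparison. Cfi, which also rose in both, was at -0.38 ± 0.15 and was not called by edgeR (adjusted p = 0.0876) but was called lower in depleted livers by DESeq2 (adjusted p = 0.0443). With library size alone as the scaling, the median of all genes shifted to 0.27, C4bp was no longer called (adjusted p = 0.0791) and Serping1 was called higher.

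In control livers, C9, C8a and C8b of the 7 terminal components were higher in males than in females. Of the 29 genes tested, 3 were higher in males and 1 was lower, where 0.738% of all genes were called, 0.384% higher and 0.354% lower. The CPM ranges of 3 males and 3 females were separate, with males higher, for 15 of 29 complement genes, against 10.4% of all genes. C9, the pore-forming component, was at 1048, 890 and 996 CPM in males and at 188, 307 and 237 CPM in females, higher by 2.0 ± 0.21 on the log2 scale (adjusted p = 0.00405). C8a was at 1195, 1194 and 1020 CPM in males and at 199, 480 and 294 CPM in females (1.80 ± 0.31, adjusted p = 0.0477). C8b was at 749, 628 and 639 CPM in males and at 157, 282 and 195 CPM in females (1.66 ± 0.23, adjusted p = 0.0157). C6, at 420, 338 and 486 CPM in males and at 23, 96.4 and 27.2 CPM in females, had the larger value of 3.08 ± 0.61 but did not pass (adjusted p = 0.123). Without control replicate 1, 3 or 5, only C9 of the genes higher in males was called, and DESeq2 called 8 higher and 2 lower. The C8a call was lost in 6 of 9 alternatives (edgeR adjusted p from 0.0679 to 0.23), also without control replicate 2 or 6.

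The single depleted male and single hepatectomy female limit any reading by sex within those groups. C9 was at 357 CPM in the depleted male and at 212, 199 and 477 CPM in the depleted females. C8b was at 335 CPM in the depleted male, below the 628 of the lowest control male, and at 341, 354 and 375 CPM in the depleted females, above the 282 CPM of the highest control female. With females only, C8b had a log2 fold change of 0.76 ± 0.24 for depletion (adjusted p = 0.065). The sex by depletion term for C8b was -1.76 ± 0.41 and did not pass over all genes (adjusted p = 1), and the corresponding terms were -1.73 ± 0.58 for C9 and -1.34 ± 0.58 for C8a (adjusted p = 1 for each). After hepatectomy, C9 was at 899 and 1045 CPM in the males and at 596 CPM in the female.

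**Figure D4:**
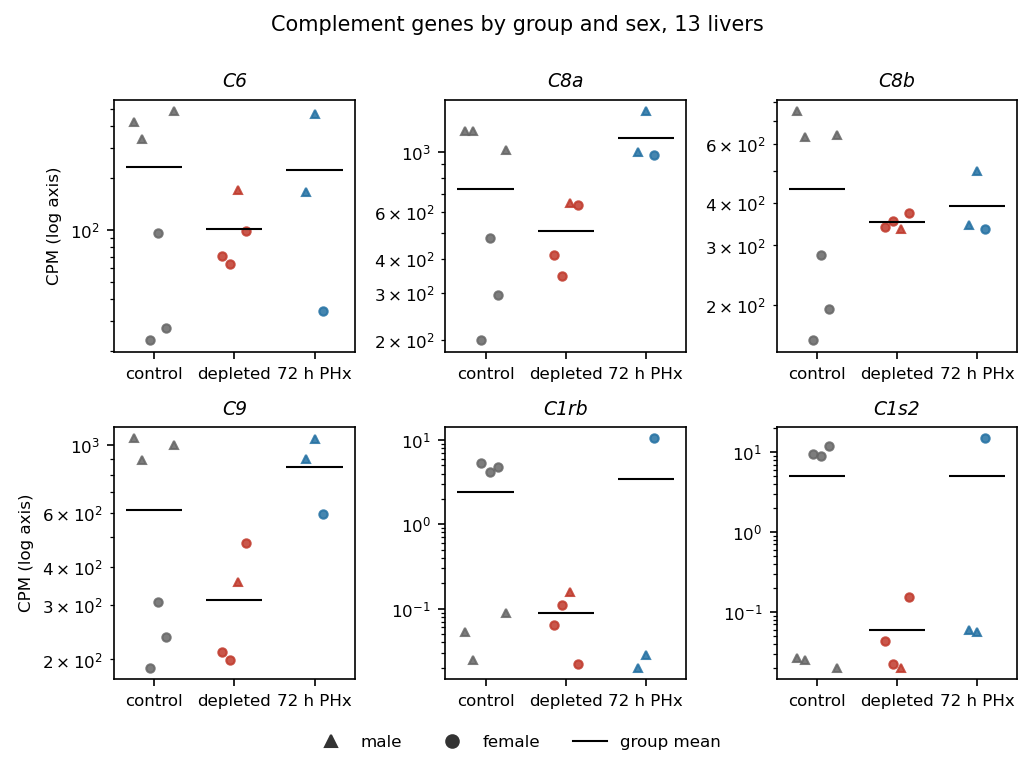
CPM on a log axis of C6, C8a, C8b, C9, C1rb and C1s2 in each liver, by group and sex, with 1 point per animal and values under 0.02 CPM drawn at 0.02. Control males lie above control females for C6, C8a, C8b and C9, and C1rb and C1s2 are high only in the control females and in the hepatectomy female.

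C1rb is a second copy of C1r, and it was well above the floor of 3 counts in 4 of the 13 livers. Its counts were 228, 187 and 203 in the 3 control females and 419 in the hepatectomy female, and at most 9 in every other library. The 3 depleted females had 3, 5 and 1 counts and the depleted male had 9. The log2 fold change of control males against control females was -6.38 ± 0.46 (adjusted p = 0.000518). Between depleted and control livers of both sexes the value of -3.90 ± 1.54 did not pass (adjusted p = 0.0709), while with females only it was -6.11 ± 0.49 (adjusted p = 0.000408). The sex by depletion term for C1rb was 7.59 ± 0.97 (male minus female, adjusted p = 0.0426), where 0.0217% of all genes were called. Control males, at 1 to 3 counts, left no room for a fall and the depleted male is 1 library, so this term does not show that the sexes responded differently, and the call was lost in 7 of 11 alternatives.

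C1s2, the copy of C1s that lies beside C1rb, had the same distribution. Its counts were 401, 395 and 509 in the control females and 599 in the hepatectomy female, and at most 7 in every other library. It is not among the 30 genes, but in the same fits it was lower in control males (-8.91 ± 0.47, adjusted p = 5.96e-05) and in depleted livers (-6.72 ± 0.69, adjusted p = 2.17e-05). C1ra, C1s1, C1rb and C1s2 lie in this order on chromosome 6 (C1ra 124512632 to 124523440, C1s1 124530345 to 124542359, C1rb 124570294 to 124581171, C1s2 124624625 to 124636085, mm10). C1rb and C1ra transcripts are 98% identical over 2429 bases, and 59.2% of 50-base windows of C1rb occur in C1ra, so reads could be shared or lost between the copies. C1s2 and C1s1 are 95.9% identical, with 26.9% of windows shared. Strain and genotype of the animals are not given in the sources used here, so for C1rb and C1s2 a difference between the animals in either cannot be told apart from sex and depletion. The depleted male stood apart at other genes too, with Cwc22 at 72.7 CPM against 10.3 to 14.7 CPM in the other 12 livers and Fam171b at 24 CPM against 0.171 to 5.42 CPM.

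The stretch just upstream of the 2 C1r copies is shown because they are near copies with different patterns over the 13 livers. Capitals mark the 6 of 99 bases that differ (93.9% identity, RefSeq, GRCm38.p6).
C1ra (chr6:124512522-124512620, plus strand): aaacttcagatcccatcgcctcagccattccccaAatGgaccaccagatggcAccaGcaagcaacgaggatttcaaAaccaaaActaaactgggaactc
C1rb (chr6:124570180-124570278, plus strand): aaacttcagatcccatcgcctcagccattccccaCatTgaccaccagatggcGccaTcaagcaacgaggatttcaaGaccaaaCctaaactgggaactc
C1ra itself was at 285, 297 and 361 CPM in control males and at 187, 158 and 184 CPM in control females, the opposite order to C1rb, with a log2 value of 0.83 ± 0.15 that did not pass (adjusted p = 0.0608).

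Some other complement genes, from a list of 24 of which 21 were tested, were called in depleted livers as well. Leaving out Fcnb, which passed the filter only through the depleted livers, 6 of 20 were higher (Cr2, C5ar2, Itgam, Itgax, Itgb2 and Cd93) and 3 lower (Mbl2, C1s2 and Cpn1), where 18.9% and 15.0% of all genes were. The lower calls were thus near the share of all genes. Itgam and Itgax, the alpha chains of complement receptors on myeloid cells, were higher by 3.50 ± 0.38 (adjusted p = 3.3e-05) and 3.74 ± 0.57 (adjusted p = 0.000373). Fcnb, a ficolin of myeloid cells, was at 0 in 5 of 6 controls and 0.0234 CPM in the other, and at 0.257, 0, 0.297 and 0.445 CPM in depleted livers. Mbl2, a hepatocyte-made mannose-binding lectin that starts the lectin route, was at 317 to 687 CPM in controls and at 320, 240, 145 and 462 CPM in depleted livers, a fall of 1.03 ± 0.21 on the log2 scale (adjusted p = 0.00265). After hepatectomy 0 of 21 were called by edgeR, with 4 higher and 1 lower at an unadjusted p under 0.05, and 3 higher by DESeq2 and 1 by limma-voom. Mbl2 was then at 633, 698 and 840 CPM (0.66 ± 0.22, adjusted p = 0.0823).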

How the data were processed

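Counts per gene were deposited as 1 table. Per the submitters' processing notes, the authors used STAR 2.7.1a, SAMtools 1.15.1 and featureCounts 1.6.4 with genome build mm10. Per the labels' protocols, libraries came from 500 ng of TRIzol-extracted RNA with a stranded mRNA kit. The strand setting, the treatment of reads that map to several genes and the annotation release are not given in the sources used here, so near copies and overlapping genes are uncertain. No batch or date is given. Symbols came from GENCODE release M21 and matched 21741 of 22048 IDs.

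The genes and lists were chosen with earlier results of these data known, and each of the 30 complement genes is described; of the list of other complement genes, the counts and the largest changes are given. Counts were tested with the edgeR 4.0.16 quasi-likelihood test in R 4.3.3 (filterByExpr, TMM, group and sex as terms over all 13 libraries, two-sided, Benjamini-Hochberg adjustment over 13831 genes, threshold 0.05). Male and female controls were compared in the 6 controls alone (13005 genes). TPM used the gene length of the deposited table. Levels and folds with ± carry the SE of the fit. DESeq2 1.42.0 and limma 3.58.1 (voom) were alternatives, with scaling, filter, sex term, replicate block and omission of each library. The fit was tested on simulated counts.

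Total counts were 35360991 to 51008737 per library. Reads carry no molecular identifiers, so floors cover counting error only. The labels name separate samples but not separate experiments, so p-values measure the spread between these animals. The lowest median chi-square between libraries of a group was 4.6, so none was a duplicate. Replicate numbers come from the labels. Deviations of same-numbered hepatectomy and control libraries correlated at 0.11 to 0.52, and at -0.19 to 0.08 after sex was removed; depleted and control libraries gave -0.34 to 0.07, and -0.1 to 0.42 after sex was removed, and depleted and hepatectomy libraries -0.35 to 0 and 0.04 to 0.27. The block is therefore printed beside the hepatectomy results where it changed a call. Motifs were searched in RefSeq promoters (GRCm38.p6) of 250 bases.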

Additional observations from a re-analysis of the deposited data

Results flagged for a closer look

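For C1rb, the term for a different change with depletion in males and females passed the threshold, but it is fixed by the floor of the counts and is no evidence of a different response. The term was 7.59 ± 0.97 on the log2 scale, male minus female (edgeR, adjusted p = 0.0426 over 13831 genes), where 3 genes or 0.0217% were called. Control males had 1 to 3 counts, so that no fall could be seen in males, and the depleted males are 1 library with 9 counts. The call was lost in 7 of 11 alternatives (adjusted p up to 0.229), with values from 7.20 to 8.16. The other genes called, Cwc22 and Fam171b, were high in the depleted male alone.

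In single libraries, 2 values lay far from the rest of their group by Dixon's test at the 95% level, among 59 groups tested, where chance gives about 1 in 20. C3ar1 was at 5.18 CPM in depleted replicate 1 and at 5.83 to 5.89 CPM in the other 3 (gap over range 0.928, critical value 0.829), a small distance in a tight group. Cfd was highest in control replicate 6, at 0.15 CPM from 5 counts (gap over range 0.643, critical value 0.625).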

How the results depend on the processing

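The number of complement genes called moved by over 1.5 times for hepatectomy against control, for the direct comparison and for sex. For depletion, 15 complement genes were called (13 higher, 2 lower). Leaving out each library in turn gave 10 to 16 (9 to 14 higher, 1 to 3 lower), with 10 without depleted replicate 3, the single male. The lower calls numbered 1 with the replicate block and 1 with females only, where 12 genes were called in each case, and with the block C3 (adjusted p = 0.119), Cfi (adjusted p = 0.0778) and C7 (adjusted p = 0.0506) were lost. For hepatectomy, the 7 calls became 3 with the replicate block and, in settings chosen after seeing the data, 4 without control replicate 6 and hepatectomy replicate 2, and 3 with males only (2 higher, and C2 as 1 lower). Leaving out single libraries gave 4 to 8, the lowest without hepatectomy replicate 2 or 3. Scaling by library size alone gave 1 lower call (Cd59a) and moved the all-gene median to -0.24. For depleted against hepatectomy livers, the 11 calls (8 higher, 3 lower) ranged from 6 to 14 without single libraries (3 to 8 higher, 2 to 6 lower), with 6 without depleted replicate 3 or hepatectomy replicate 3 and 14 without depleted replicate 4. For male against female controls, the 4 calls became 10 with DESeq2 (8 higher, 2 lower) and ranged from 2 to 5 (1 to 4 higher) without single libraries, with 2 without control replicate 1, 3 or 5. Without control replicate 6 and hepatectomy replicate 2, 17 genes were called for depletion and 10 between the conditions. Among 1864 values of single genes under the alternatives, 78 lost the threshold, 34 gained it and 0 called values changed sign. The cause of these shifts was not tested, apart from the fewer libraries where some were left out. Low counts limit C7, Cfd, C1rb and C3ar1.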
